A study of Solanum lycopersicum with 28 samples.

Results

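Acetylation, monomethylation and dimethylation of lysine 56 of histone H3 (H3K56ac, H3K56me1 and H3K56me2) were compared through the 3 peak lists that carry these names in the labels, with every deposited peak on chromosomes 1 to 12 kept. These lists held 642945 of the 3381748 peaks that all 28 lists of the series placed on the 12 chromosomes. H3K56ac contributed 57840 peaks, H3K56me1 201590 and H3K56me2 383515. The series was a chromatin immunoprecipitation sequencing (ChIP-seq) survey of tomato (Solanum lycopersicum) leaves, in which an antibody recovers the DNA wrapped around histones that carry a given modification. All libraries came from wild-type plants of the cultivar M82, aged 4 weeks, grown at 24 °C with 16 h of light and given no treatment, and they comprised 27 antibody targets (26 histone modifications and RNA polymerase II, Pol2) and Input chromatin that was not immunoprecipitated. Each target was represented by 1 library, so no comparison below has a replicate check and no p-value is given. Spread is shown over the 12 chromosomes, which are not replicates. The lists hold no gene names, so the leaf origin was not checked against marker genes.

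Lysine 56 lies in the globular core of histone H3, close to where DNA enters and leaves the nucleosome, whereas most of the well-known histone marks sit on the flexible tails. Acetylation and methylation use the same amino group of the lysine, so a given H3K56 residue is generally taken to carry either an acetyl group or methyl groups. In yeast, H3K56ac marks newly made histones that are placed behind the replication fork and at sites of rapid nucleosome exchange, and in mammals H3K56me1 has been linked to the methyltransferase G9a. Leaf tissue contains many cell types. Whether marks recorded in the same stretch of DNA came from the same nucleosome, from sister histones or from different cells cannot be told apart.

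The lists differed in shape and in the enrichment values given for their peaks. H3K56ac was deposited in the narrow format of the peak caller, with a median width of 563 bp and a median fold enrichment (read pileup over local background) of 3.35. H3K56me1 and H3K56me2 were in the broad format, which joins neighbouring enriched stretches, with median widths of 987 bp and 431 bp and median folds of 1.66 and 1.76. Values in broad lists are averages over a peak. Folds and q-values are therefore not like measures between the narrow and the broad format. H3K56ac covered 37.4 Mb, the smallest share of the genome of all 27 target lists, while H3K56me1 covered 278 Mb and H3K56me2 261 Mb. H3K56me2 had the most peaks of all 27 target lists. Its peaks were short and close together, with a median gap of 593 bp between neighbours against 1190 bp for H3K56me1 and 3508 bp for H3K56ac. At a q-value under 0.05, 51993 H3K56ac peaks (89.9%, 95% Wilson interval 89.6 to 90.1%) passed, but only 10 H3K56me1 and 42 H3K56me2 peaks. The methylation lists thus held enrichments of low average fold spread over 34.6% (H3K56me1) and 32.6% (H3K56me2) of the genome, and few of their single peaks passed this threshold. Peak format and kind of modification cannot be told apart within these 3 lists.

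Depth is unknown because the lists hold no read totals, but the local background in reads can be solved from the fold and the p-value of each peak. Its 1st percentile was 3.49 for H3K56ac, about 3.08 for H3K56me1 and about 1.74 for H3K56me2, the lowest of the 27 target lists, which ranged up to 11.6. The shortest H3K56me2 peak was 74 bp, whereas no H3K56me1 peak was shorter than 150 bp, and 63597 H3K56me2 peaks (16.6%, holding 2.34% of the bases of the list) lay below that length. The part of the background difference in the results on the 2 methylations was not tested, and the overlap of the 2 without these short peaks is given with that overlap.

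The 3 modifications occupied opposite parts of the chromosomes. Occupancy was counted over bins of 150 bp, taken as occupied if the bin centre fell inside a peak. H3K56ac occupied 11.05% of the bins in the terminal zone (the outer 10% at each chromosome end) and 1.97% of those in the central zone (the middle 50%), a log2 ratio of 2.49. H3K56me1 occupied 12.6% of the terminal and 43.7% of the central bins (log2 ratio -1.80), and H3K56me2 10.4% and 41.8% (log2 ratio -2.00). The Input, for comparison, had a log2 ratio of 0.63. H3K56ac was thus concentrated toward the ends and both methylations toward the middle. With both ends pooled, the ratio had this sign on every one of the 12 chromosomes for each mark. The start of chromosome 2 taken alone went the other way. It held 0.978% H3K56ac, 46.8% H3K56me1 and 44.3% H3K56me2, against 5.70%, 29.9% and 26.9% in the central zone of that chromosome. Over chromosomes the mean ratio was 2.59 ± 0.75 (SD, n = 12 chromosomes) for H3K56ac, -1.84 ± 0.61 for H3K56me1 and -2.07 ± 0.71 for H3K56me2. With every peak kept, H3K56me2 was the second most central of all 27 targets and H3K56me1 came next. The most central was H3K9me2 (-2.51), the heterochromatin mark that KRYPTONITE-type enzymes deposit in plants.

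**Figure D1:**
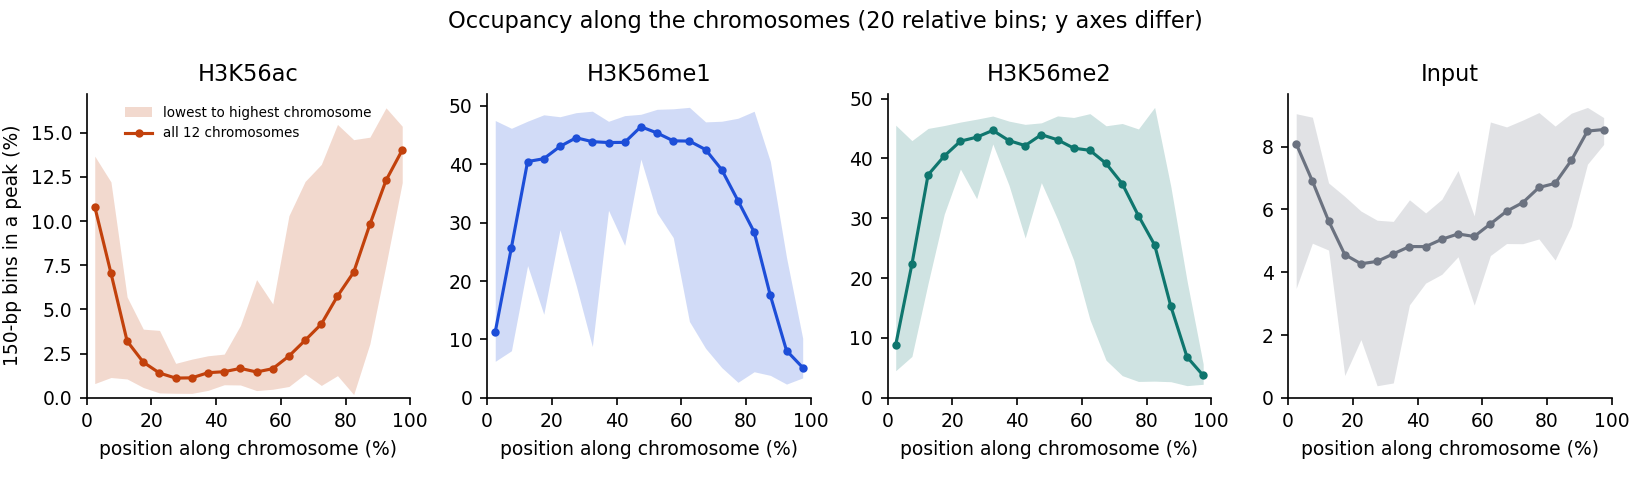
Share of 150-bp bins inside a peak (y axis, percent, scales differ between panels) in 20 equal steps along the chromosomes (x axis, percent of chromosome length) for H3K56ac, H3K56me1, H3K56me2 and Input. Lines give all 12 chromosomes together and bands the lowest and highest chromosome; H3K56ac was highest in the last step (14.01%) and both methylations were above 40% through most of the middle.

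Along the chromosome, H3K56ac was 10.8% in the first of 20 equal steps, 1.12% in the sixth step and 14.01% in the last. H3K56me1 ran the other way, from 11.3% in the first step to 46.4% just before the midpoint and 5.19% in the last, and H3K56me2 from 8.83% to 44.7% (in the seventh step) and 3.74%. The profiles were not symmetrical, since the high H3K56ac zone reached further in from the far end than from the start. Chromosome 2 stood apart. There the terminal over central ratio was 0.56 for H3K56ac, -0.24 for H3K56me1 and -0.16 for H3K56me2, the values nearest to 0 of the 12 chromosomes. The start of chromosome 2 held 0.978% H3K56ac, 46.8% H3K56me1 and 44.3% H3K56me2, against 15.9%, 3.80% and 3.84% at its far end. The start of this chromosome thus had the occupancy of a chromosome centre, and its far end that of an arm. The terminal share relative to the central one was higher for H3K56me1 than for H3K56me2 on 11 of the 12 chromosomes. Taken within each chromosome, the difference was 0.23 ± 0.13 on the log2 scale (mean and SD, range -0.08 to 0.47). It was smaller than the spread of either mark between chromosomes, which does not measure the spread of this paired difference. The order of the 2 marks depended on the peaks kept. With each list cut to the covered length of H3K56ac it was reversed, at -1.91 for H3K56me1 and -1.78 for H3K56me2. It held under the other alternative settings, such as a fold above 1.5 (-1.87 and -2.00).

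Acetylation and methylation of H3K56 rarely occupied the same bins. H3K56ac and H3K56me1 shared 13638 bins where 86158 would follow from their separate shares, a log2 odds ratio of -3.28 (lowest chromosome -3.58, highest -2.84). H3K56ac and H3K56me2 shared 9682 bins where 81204 would follow, a log2 odds ratio of -3.67 (-3.85 to -3.35). Both ratios were below 0 on 12 of 12 chromosomes. The ratios were nearer to 0, at -2.24 and -2.59, when bins were compared only within windows of 1 Mb, which removes the broad placement along the chromosome. In the terminal zone they were -2.03 and -2.57, and in the central zone -3.08 and -3.25, so the separation was present in either type of surroundings. Of the H3K56ac peaks, 10.8% touched an H3K56me1 peak (10.6 to 11.1%) and 11.6% an H3K56me2 peak (11.4 to 11.9%), whereas 37.1% and 33.7% of the Input peaks did. With the requirement that 50% of the H3K56ac peak be covered, the shares were 5.54% and 2.79%, so most H3K56ac peaks in contact with H3K56me2 were covered over less than that. H4K5ac, an acetylation deposited in the broad format of the methylations, had 13.7% of its peaks touching H3K56me1 and 15.8% touching H3K56me2, and 2.85% and 1.04% covered over 50%. Both ratios depended on the choice of peaks. Among peaks with a q-value under 0.05 the ratio of H3K56ac was 3.17 with the 10 H3K56me1 peaks and 2.41 with the 42 H3K56me2 peaks. These values rest on 22 and 26 shared bins. With a fold above 1.5 the ratios were -3.49 and -3.67. With each methylation list cut to the covered length of H3K56ac they were -4.28 and -5.57.

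The 2 methylations overlapped each other, but much less than completely. They shared 944006 bins, 141.6 Mb, which is 51.0% of the bases of H3K56me1 and 54.2% of those of H3K56me2, with a log2 odds ratio of 1.82 (1.61 on chromosome 12 to 2.29 on chromosome 2). Within windows of 1 Mb the ratio was 1.17. It was 3.46 in the terminal zone and 1.10 in the central zone. The ratio was thus higher in the terminal zone, where both marks were sparse with all ends pooled, than in the central zone, where each occupied over 40% of the bins. The pooled ends were unlike. The start of chromosome 2, for example, held 46.8% H3K56me1 and 44.3% H3K56me2, and its far end 3.80% and 3.84%. The part of this in the terminal ratio was not tested. An H3K56me2 peak was touched by 83.4% of the H3K56me1 peaks, and 66.9% of the H3K56me2 peaks touched H3K56me1. Such shares were not particular to this pair, since 84.6% of the H3K14me1 and 95.6% of the H3K9me2 peaks also touched H3K56me2, and 80.2% and 88.8% touched H3K56me1. H3K56me1 peaks that touched no H3K56me2 peak (16.6%) were shorter, with a median of 422 bp against 1187 bp. Of the H3K56me1 peaks, 49.0% touched 1 H3K56me2 peak, 21.8% touched 2 and 12.5% touched 3 or more, up to 11. H3K56me2 peaks rarely bridged H3K56me1 peaks, since 4.32% of them touched 2 or more. When each list was cut to its peaks of highest -log10 p-value covering the same length as H3K56ac, the log2 odds ratio dropped to 0.56, and 16.0% of the H3K56me1 peaks touched H3K56me2. Leaving out the H3K56me2 peaks under 150 bp gave 79.9% and 71.6% in place of 83.4% and 66.9%.

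Over the 802 windows of 1 Mb, the occupied shares of H3K56me1 and H3K56me2 had a Pearson r of 0.97 (Spearman rho 0.90), a description of windows that share position and libraries. H3K56ac ran against both, with r of -0.90 for H3K56me1 and -0.95 for H3K56me2. H3K56me1 was slightly higher than H3K56me2 in 688 windows, and the median difference was 2.34 percentage points. A small set of windows broke this pattern in the direction of H3K56me2. On chr11:20000001-21000000, H3K56me1 occupied 5.82% of the bins and H3K56me2 45.6%. The adjoining windows starting at 18000001 and 19000001 had 9.22% and 6.34% H3K56me1 against 48.2% and 41.3% H3K56me2. Similar gaps stood on chr6:9000001-10000000 (5.70% against 38.3%) and chr8:10000001-11000000 (1.29% against 27.1%). The 10 windows with the largest such gap lay on chromosomes 3, 6, 8 and 11 and were chosen after their values were seen.

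**Figure D2:**
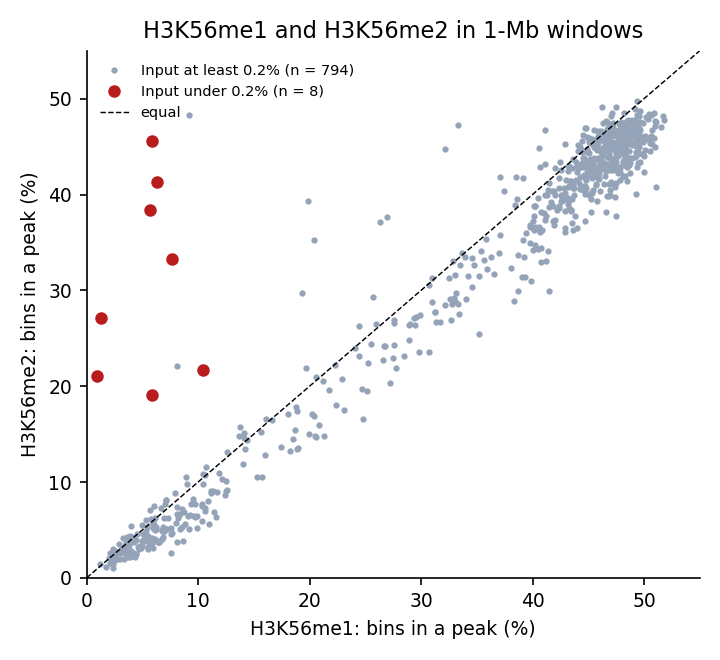
Occupied share of bins in 1-Mb windows, H3K56me1 on the x axis and H3K56me2 on the y axis (percent), each point a window and the dashed line equality. The 8 windows in which Input peaks occupied under 0.2% of the bins (large points) all held more H3K56me2 (19.1 to 45.6%) than H3K56me1 (0.885 to 10.4%).

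In these windows Input peaks were nearly absent as well. The 10 windows had a median Input occupancy of 0.0975%, against 5.70% over all windows. The 8 windows with under 0.2% Input held 0.885 to 10.4% H3K56me1 and 19.1 to 45.6% H3K56me2. There H3K9me2 ranged from 30.3 to 80.4%, H3K14me1 from 7.77 to 29.3% and H3K27me1 from 0.015 to 8.78%. All of the 8 except chr1:35000001-36000000 and chr8:11000001-12000000 were also among the 10 windows, so they are not an independent check of the gap. The median of H3K56me2 in these 8 windows was 30.2% against 41.1% over all windows, and that of H3K9me2 52.6% against 50.5%. The median of H3K56me1 was 5.84% against 44.05%, that of H3K23me1 8.44% against 44.3%, and that of H3K27me1 1.25% against 45.7%. In the same 8 windows the H3K56me2 peaks had a median fold of 1.92 against 1.76 elsewhere, and the few H3K56me1 peaks 1.57 against 1.66. Below the limit of 0.2%, low Input occupancy went together with the gap between the methylations. Above it the windows differed. On chr10:15000001-16000000 (Input 0.87%) H3K56me1 occupied 46.96% and H3K56me2 47.31%, and on chr12:39000001-40000000 (Input 0.9%) 8.94% and 10.47%. On chr8:12000001-13000000, among the 10 windows, Input was higher (1.11%) and the shares were 19.86% and 39.3%. The part of low Input occupancy in the result was not tested. Without the 10 windows the log2 odds ratio of H3K56me1 with H3K56me2 was 1.82 and the r was 0.99.

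H3K56ac peaks stood in gaps of the methylation. A peak of H3K56ac that touched no H3K56me1 lay at a median of 3518 bp from the nearest, and one that touched no H3K56me2 at 2948 bp. The nearest H3K9me2 peak was further away, at a median of 15984 bp among the peaks that did not touch it, with 29.99% of all H3K56ac peaks over 50 kb from any. Input peaks that did not touch lay at medians of 1656 bp from H3K56me1, 1317 bp from H3K56me2 and 5704 bp from H3K9me2. Of all Input peaks, 13.92% were over 50 kb from H3K9me2. The H3K9me2 list held 66570 peaks, fewer than either H3K56 methylation list, so distances to these targets are not like measures. Seen from the methylation side, H3K56me1 peaks lay at a median of 29530 bp and H3K56me2 peaks at 32257 bp from the nearest H3K56ac peak. Methylation peaks were many and acetylation peaks few, so the distances in the 2 directions are not comparable.

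**Figure D3:**
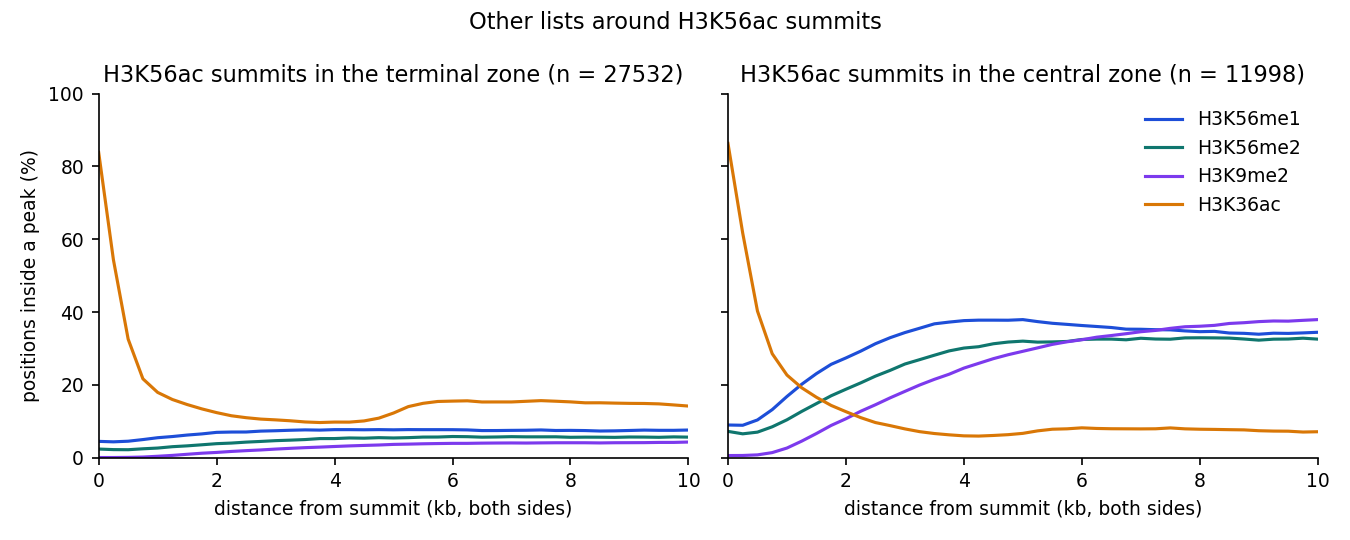
Share of positions inside a peak of H3K56me1, H3K56me2, H3K9me2 or H3K36ac (y axis, percent) by distance from the summits of H3K56ac peaks (x axis, kb, both sides averaged), for 27532 terminal and 11998 central summits. At central summits H3K56me1 stood at 9.01% and reached 37.9% at 5 kb, and H3K9me2 at 0.625% and 29.2%.

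The gap was clearest in the chromosome centres. Around the 11998 central H3K56ac summits, H3K56me1 covered 9.01% of the positions at the summit, 16.8% at 1 kb, 27.4% at 2 kb and 37.9% at 5 kb. H3K56me2 covered 7.26%, 10.4%, 18.8% and 32.0% at the same distances. H3K9me2 began lower and recovered more slowly, with 0.625%, 2.69%, 10.7% and 29.2%, and it reached 42.7% only at 20 kb. The order H3K56me1, H3K56me2, H3K9me2 therefore held at each of these distances from the summit up to 5 kb. Around the 27532 terminal summits all were sparse, with H3K56me1 at 4.52% at the summit and 7.69% at 5 kb. Around the 154849 central Input summits H3K56me1 stood at 47.8% at the summit and 44.6% at 5 kb, and H3K56me2 at 41.2% and 41.7%. H3K9me2 was lower at these Input summits too, with 47.7% at the summit and 56.2% at 5 kb, a smaller gap than around H3K56ac.

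H3K56ac shared bins most often with other acetylations and with H3K4me3. All 12 other acetylation lists had a log2 odds ratio above 4 with H3K56ac, with a mean of 6.70 ± 1.35 (SD, n = 12 lists), led by H3K36ac (8.66, chromosome range 8.21 to 8.96), an acetylation where the tail of H3 joins the core, and by H3K79ac (8.22), a core lysine like K56. H3K36ac occupied 85.8% of the H3K56ac bins, and H3K56ac 74.1% of the H3K36ac bins. The nearest H3K36ac summit lay a median of 62 bp from an H3K56ac summit, closer than for any other narrow list, and 67.7% were within 150 bp. The labels give the same catalogue number for the H4K12ac and H4K20ac antibodies, so these lists may not be separate targets. H3K4me3, the mark of active gene starts, came seventh among all targets with a log2 odds ratio of 7.20, above 6 of the 12 acetylations, and H3K4me2 (5.08) was above H3K9ac (4.99) and H3K14ac (4.64). H3K27ac, an enhancer and promoter mark, was touched by 92.5% of H3K56ac peaks (92.3 to 92.7%), and H3K4me3 by 65.8% (65.4 to 66.2%). Pol2 (log2 odds ratio 3.19) and H3K4me1 (1.06) were weaker partners, and within 1 Mb windows that of H3K4me1 was -0.41. Of the H3K56ac peaks, 23121 (40.0%) touched all 12 other acetylations and 342 (0.591%) touched none. Those that touched all 12 had a median width of 823 bp and a median fold of 7.04, and 3.62% of them touched H3K56me1. Those that touched none had a median width of 193 bp and a median fold of 2.23, and 49.1% touched H3K56me1 and 26.02% H3K9me2. Wider peaks can touch more lists, and the part of width in these shares was not tested. The Input shared more bins with H3K56ac than its separate share gives, with a log2 odds ratio of 2.23, and 60.3% of the H3K56ac peaks touched an Input peak.

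At the other end, H3K56ac almost never met H3K9me2. They shared 237 bins, 0.0952% of the H3K56ac bins (log2 odds ratio -9.74), far below H3K56me1 and H3K56me2. The H3K9me2 list has no replicate tag in its name, whereas the H3K56 lists do. The 6 constitutive heterochromatin targets of the study, H3K56me1 and H3K56me2 among them, were all below 0 (mean -3.75 ± 3.06) (SD, n = 6 lists), all 18 other euchromatin targets were above 0 (5.65 ± 2.31), and the Polycomb-type methylations H3K27me3 (2.26) and H3K27me2 (0.97) were above 0. The study drew the classes from antibody staining of nuclei and from these same libraries, so they are not independent of the lists compared here. Among broad lists alone the 3 euchromatin lists averaged 4.24 and the 6 constitutive ones -3.75.

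**Figure D4:**
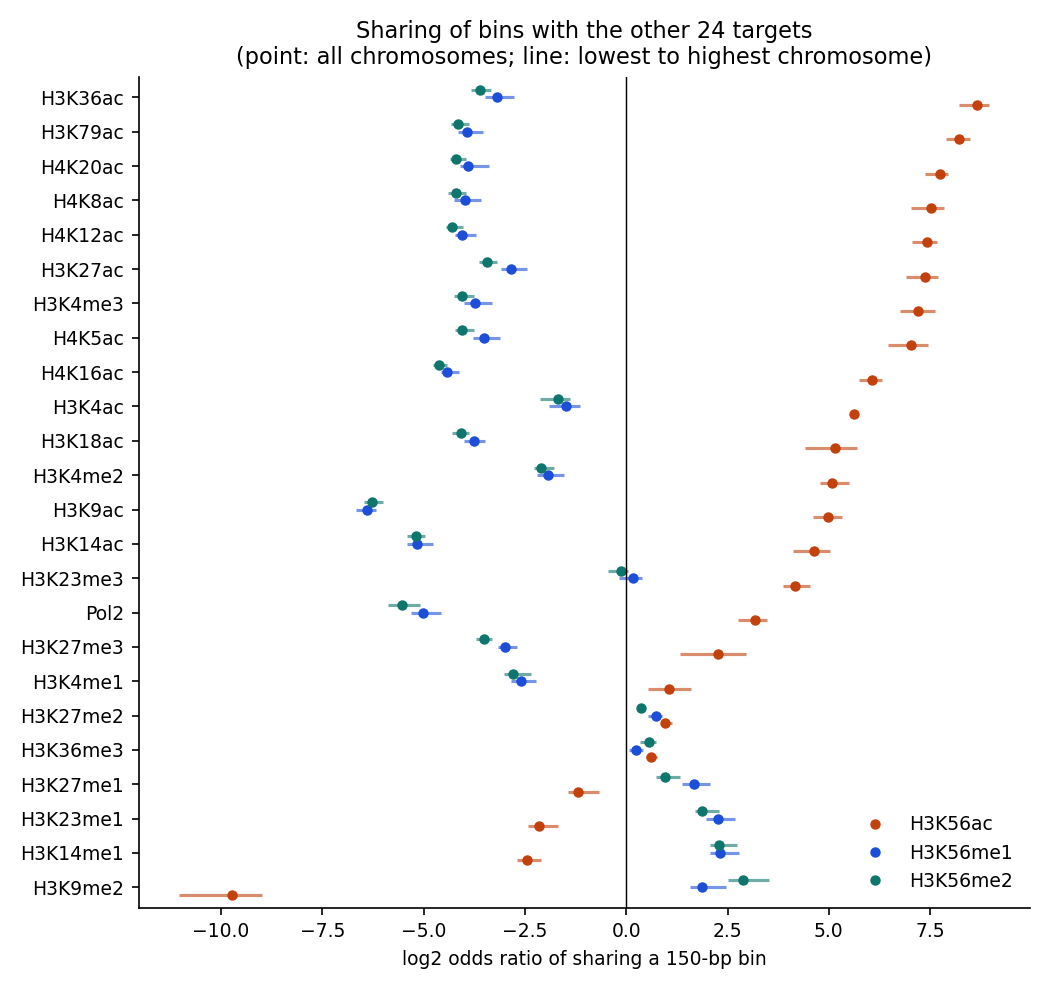
Log2 odds ratio of sharing a 150-bp bin (x axis) between each H3K56 mark and the other 24 targets (y axis). Points give all chromosomes and lines the lowest to highest chromosome. H3K56ac stood opposite to both methylations at most targets, and all 3 marks were above 0 with H3K27me2 and H3K36me3.

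H3K56me1 and H3K56me2 had nearly the same partners in a different order. H3K56me1 was highest with H3K14me1 (2.32, chromosome range 2.05 to 2.77) and H3K23me1 (2.27), the monomethylations of tail lysines, and then with H3K9me2 (1.88), H3K56me2 and H3K27me1 (1.68). H3K56me2 was highest with H3K9me2 (2.87, 2.52 to 3.53), followed by H3K14me1 (2.29) and H3K23me1 (1.88), and was lower with H3K27me1 (0.95). Both were lowest with H3K9ac, at -6.41 and -6.28, and below -5 with H3K14ac and Pol2. All 13 acetylations were below 0 with both marks. Outside the constitutive class, H3K27me2 was above 0 with both (0.73 and 0.35), as was H3K36me3 (0.24 and 0.55), a mark of transcribed gene bodies. The H3K36me3 list is broad and has no replicate tag in its name, and it occupied 25.7% of the H3K56me1 and 28.6% of the H3K56me2 bins against 23.7% of the genome.

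The clearest difference between the 2 methylations was at H3K9me2. Its log2 odds ratio was lower with H3K56me1 than with H3K56me2 by 1.00, and it was lower on all 12 chromosomes (difference -1.28 to -0.88). In bins with H3K56me1 alone, H3K9me2 occupied 53.2%. In bins with H3K56me2 alone it occupied 74.7%, almost the 73.9% of bins with both. H3K27me1, in Arabidopsis the product of ATXR5 and ATXR6 in heterochromatin, went the other way, with 56% of the H3K56me1-only bins, 39.7% of the H3K56me2-only bins and 56.1% of bins with both. H3K27me2 followed it (44.8% and 35.9%), while H3K14me1 did not distinguish the 2 sets (50.4% and 50.5%) and was highest where both marks were present (68.4%). H3K27me1 and H3K27me2 were higher in H3K56me1-only bins on all 12 chromosomes, by 12.8 to 20.8 and by 6.26 to 13.3 percentage points. The split was wider in the terminal zone, which pools unlike chromosome ends, than in the central zone. H3K9me2 occupied 24.6% of the terminal H3K56me1-only bins and 57.6% of the terminal H3K56me2-only bins, against 59.9% and 77.6% in the central zone. The relation of H3K56me1 to H3K9me2 also depended on which peaks were taken, since with each list cut to the same covered length it was -0.17, and that of H3K56me2 was 1.40. The H3K9me2 list was then reduced to 2665 of its 66570 peaks. Unlike the H3K56 lists it carries no replicate tag, and whether it was made differently was not tested.

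**Figure D5:**
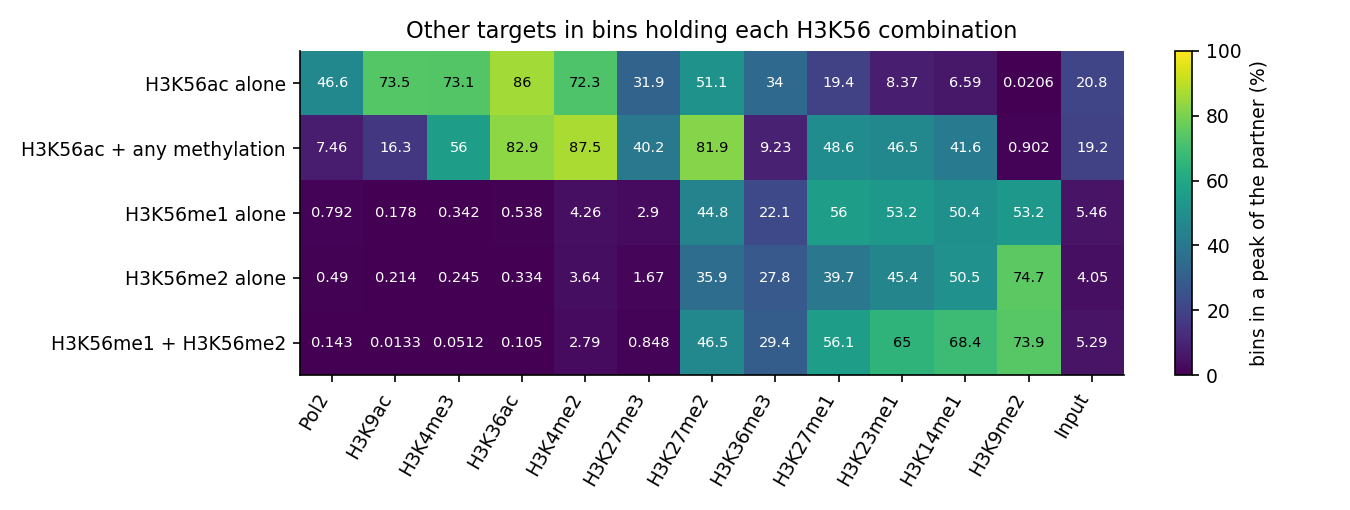
Share of bins (percent, colour scale and printed numbers) that lie in a peak of 12 other targets or Input (columns), for bins with H3K56ac alone, H3K56ac with either methylation, H3K56me1 alone, H3K56me2 alone, or both methylations (rows). H3K9me2 was at 53.2% with H3K56me1 alone and 74.7% with H3K56me2 alone, and H3K9ac at 73.5% with H3K56ac alone and 16.3% where a methylation list was also present.

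The 21065 bins that held H3K56ac together with a methylation list, 3.16 Mb or 0.394% of the genome, differed from the 228006 bins with H3K56ac alone. They had less H3K9ac (16.3% against 73.5%), less Pol2 (7.46% against 46.6%), both of them marks of active transcription, and less H3K36me3 (9.23% against 34.0%). Over all bins of the genome these shares were 9.37%, 9.38% and 23.7%, so H3K9ac in the mixed bins was above its genome share and Pol2 and H3K36me3 were below theirs. H3K36ac (82.9% and 86.0%) and H3K27ac (87.2% and 86.4%) were close to their level elsewhere. H3K4me2 was higher (87.5% against 72.3%), as were H3K4me1 (34.6% against 18.1%) and H3K27me2 (81.9% against 51.1%). Each of these differences except that of H3K27ac had the same sign on 12 of 12 chromosomes. H3K9me2 was rare, at 0.902% against 0.0206% in bins with H3K56ac alone and 42.85% over all bins. The other constitutive marks were also higher in the mixed bins. H3K23me1 was at 46.5% against 8.37%, H3K14me1 at 41.6% against 6.59% and H3K27me1 at 48.6% against 19.4%. Each of these differences, that of H3K9me2 included, had the same sign on 12 of 12 chromosomes. The mixed bins carried 6.51 of the 12 other acetylations on average, against 9.19 in bins with H3K56ac alone and 0.0308 in bins with both methylations. H3K9ac was lower in the mixed bins in the terminal zone (19.5% against 81.6%) and, by fewer percentage points, in the central zone (13.2% against 57.1%). The H3K56ac peaks differed in strength as well. Those covered over at least 50% by either methylation had a median fold of 2.59, against 3.49 for those touching neither. The part of this in the differences was not tested. The H3K9ac and Pol2 lists carry no replicate tag, whereas the H3K56 lists do, and whether those lists were made differently was not tested.

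Stronger H3K56ac peaks had their midpoints less often inside methylation peaks. In the lowest of 5 equal groups by fold (1.36 to 2.29), 9.96% of the peak midpoints lay in H3K56me1 and 5.44% in H3K56me2, and in the highest (7.37 to 26.1) 0.622% and 0.977%. H3K4me3 was at 28.8% of the midpoints in the lowest group and 99.4% in the highest, and H3K36ac at 57.8% and 99.7%. Pol2 changed less, from 35.2% to 44.4%. The share of peaks in the central zone was similar throughout (17.9 to 22.6%), with no steady order over the 5 groups. Among H3K56me2 peaks the midpoints in H3K9me2 went from 42.5% in the lowest group to 73.5% in the highest, and those in H3K56ac from 3.29% to 0.441%. Among H3K56me1 peaks H3K9me2 had its highest shares in the middle of the range (66.3% and 66.5% in adjoining groups) and stood at 58.7% in the highest group, while H3K14me1 increased throughout from 45.3% to 63.1%. H3K27me1 also went opposite ways between the lowest and highest groups, from 42.3% to 58.5% among H3K56me1 peaks and from 49.7% to 39.2% among H3K56me2 peaks.

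Single regions show these patterns in coordinates of the M82 genome, version 1. The genes and repeats at these positions were not analysed here. The H3K56ac peak of highest fold (26.1) was chr6:49728068-49728535, 468 bp at 95.1% of the chromosome length. Pol2 covered all of it, H3K4me3 99.1% and H3K9ac 88.5%, and neither methylation nor H3K9me2 was present. The longest H3K56ac peak, chr10:41684191-41687743, spanned 3553 bp with a fold of 5.59. H3K36ac, H3K27ac and H3K4me2 each covered 100% of it, but Pol2 0%, and H3K56me1 and H3K56me2 touched 13.5% and 26.03% of its length. The window richest in H3K56ac was chr2:53000001-54000000, with 17.4% against 2.28% H3K56me1 and 2.37% H3K56me2.

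The longest H3K56me1 peak was chr3:46493030-46504331, 11302 bp with a fold of 1.66, of which H3K9me2 covered 77.6%, H3K23me1 66.9% and H3K56me2 54.7%. The longest H3K56me2 peak was chr8:32354968-32362361, 7394 bp with a fold of 1.88, of which H3K9me2 and H3K14me1 covered 100% and H3K56me1 55.3%. Neither held any acetylation. The richest windows were chr10:31000001-32000000 for H3K56me1 (51.8%) and chr1:42000001-43000000 for H3K56me2 (49.8%). The longest stretch with both methylations, chr5:19567583-19573044, ran for 5462 bp, of which H3K9me2 covered 94.1% and H3K23me1 100%.

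The methylation peaks of highest fold did not look like the rest of their lists. They were chr8:66728332-66728589 (H3K56me1, fold 6.46) and chr8:66728396-66728515 (H3K56me2, fold 8.94), which overlap each other at 99.99% of the length of chromosome 8. H3K56ac, H3K36ac and H3K9me2 covered both peaks completely, and Input peaks covered 46.9% and 98.3%. Of the 10 H3K56me1 peaks with a q-value under 0.05, 8 touched H3K56ac, a euchromatin target. Of the constitutive class, H3K56me2 was touched by all 10 and H3K9me2 by 9. All 10 also touched Input. Of the 42 such H3K56me2 peaks, 18 touched Input, 33 H3K9me2 and 11 H3K56ac. Over the whole lists 2.72% of the H3K56me1 and 1.83% of the H3K56me2 peaks touched H3K56ac, 41.6% and 24.6% touched Input, and 73% and 69% touched H3K9me2.

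The longest stretches that joined acetylation and methylation lacked Pol2 and H3K9me2. H3K56ac and H3K56me1 shared 2389 bp at chr1:11683414-11685802, where H3K79ac, H4K5ac, H3K27me2 and H3K27me1 covered 100% and Pol2 and H3K9me2 0%. H3K56ac and H3K56me2 shared 1469 bp at chr8:34673996-34675464, with H3K4me2 and H3K27me2 at 100% and H3K27me3 at 97.5%. All 3 marks shared 1318 bp at chr4:65360648-65361965, where H3K36ac, H3K27ac, H3K4me3 and H3K4me2 covered 100% and H3K9me2 and Pol2 0%. Such triple stretches were rare and short, 1982 in all with a median of 132 bp and a total of 0.334 Mb.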

How the data were processed

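The authors trimmed reads with Trimmomatic 0.38, aligned them with Bowtie2 2.3.5 to the M82 genome version 1, removed duplicates and low-quality alignments and called peaks with MACS2 2.2.7.1 at a p-value of 0.05, in sharp or broad mode. The deposited lists give, per peak, a fold enrichment (a ratio of pileup to local background), the −log10 of a p-value and of a q-value, and in narrow lists the summit as another number, its distance from the peak start. In broad lists the values are averages over a peak, so the solved backgrounds are approximate. The study had 2 biological replicates, but 1 list per target was used here. Whether the lists pool replicates and whether the Input served as control are not given in the sources used here. The minimum H3K56me2 peak width of 74 bp, against 150 bp for H3K56me1, differs from the stated fragment extension.

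Peaks on the 12 chromosomes were analysed with Python 3.11.15, numpy 2.4.6, pandas 2.3.3 and scipy 1.17.1. No fold filter was applied. Chromosome length was the largest peak end in any list (802 Mb in all). Odds ratios came from 2 by 2 tables of bins with 0.5 added to each cell, and those within 1 Mb windows from the Mantel-Haenszel formula. Touching means at least 1 shared bp. Intervals for shares are 95% Wilson intervals and cover counting error only. Measures were tested on simulated peak lists. For each mark the regions named were the peak of highest fold, the longest peak, the richest 1 Mb window and the longest shared stretches, and the partners named were the highest, the lowest and the classes. The windows of unequal methylation, the strict peaks and the mixed bins were described after their values were seen. The members and lists were chosen with earlier results of these data known. The alternatives were a fold above 1.5, a q-value under 0.05, equal covered length, bins of 1000 bp, bins or peaks free of Input, a wider terminal zone and 50% overlap.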

Additional observations from a re-analysis of the deposited data

How the results depend on the processing

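With a fold above 1.5, the log2 odds ratios were -3.49 for H3K56ac with H3K56me1, 2.26 for H3K56me1 with H3K14me1, 2.79 for H3K56me2 with H3K9me2 and 1.80 for H3K56me1 with H3K9me2, the terminal over central ratio of H3K56me1 was -1.87, and the touching shares were 8.85% (H3K56ac to H3K56me1), 84.9% (H3K56me1 to H3K56me2) and 64.7% (H3K56me2 to H3K56me1). With a q-value under 0.05, where only 10 H3K56me1 and 42 H3K56me2 peaks were left, signs turned for H3K56ac with H3K56me1 (3.17) and H3K56me2 (2.41) and for the terminal over central ratio of H3K56me1 (4.84) and H3K56me2 (2.63). The other log2 odds ratios were then 15.2 (H3K56me1 with H3K56me2), 8.86 (H3K56ac with H3K36ac), 17.4 (H3K56me1 with H3K14me1), 3.78 (H3K56me2 with H3K9me2) and 3.31 (H3K56me1 with H3K9me2), and the touching shares 0.0212% (H3K56ac to H3K56me1), 0.0288% (H3K56ac to H3K56me2), 70% (H3K56me1 to H3K56me2) and 19.05% (H3K56me2 to H3K56me1). With equal covered length, H3K56me1 with H3K9me2 turned to -0.17. The other log2 odds ratios were -4.28 (H3K56ac with H3K56me1), -5.57 (H3K56ac with H3K56me2), 0.56 (H3K56me1 with H3K56me2), 8.89 (H3K56ac with H3K36ac), 1.92 (H3K56me1 with H3K14me1) and 1.40 (H3K56me2 with H3K9me2), the terminal over central ratios -1.91 (H3K56me1) and -1.78 (H3K56me2), and the touching shares 0.629%, 0.475%, 16.0% and 8.37% in the same order. Bins of 1000 bp gave -1.99 for the terminal over central ratio of H3K56me2. In bins free of Input the log2 odds ratios were -3.24 (H3K56ac with H3K56me1), 1.78 (H3K56me1 with H3K56me2), 8.69 (H3K56ac with H3K36ac), 2.29 (H3K56me1 with H3K14me1), 2.86 (H3K56me2 with H3K9me2) and 1.85 (H3K56me1 with H3K9me2), and the terminal over central ratios 2.59, -1.76 and -1.96 for H3K56ac, H3K56me1 and H3K56me2. An outer zone of 20% at each end gave 2.07, -0.98 and -1.06. An overlap of 50% gave touching shares of 5.54%, 2.79%, 48.2% and 49.5%, and peaks free of Input 10.1% (H3K56ac to H3K56me2), 80.1% (H3K56me1 to H3K56me2) and 62.7% (H3K56me2 to H3K56me1). After seeing the data, comparison within 1 Mb windows was added (-2.24, -2.59 and 1.17 for the 3 pairs), as was leaving out short H3K56me2 peaks (79.9% and 71.6%). Of the alternative values, 19 stayed inside the counting interval of the reported value, 54 moved further and 5 changed sign. Beyond the small number of peaks at a q-value under 0.05, the cause was not tested. No paired analysis was possible because each target had 1 library. With 1 library per target and unknown depth, differences between the lists cannot be separated from differences between libraries.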
